A study of Homo sapiens with 8 samples.

Results

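Chromatin and histone-modifying regulators are the enzymes and complex subunits that move nucleosomes and that add, remove or read methyl and acetyl groups on histones and DNA. The peaks of 59 such genes were examined here. They comprised 20 nucleosome remodellers, 17 histone methyltransferases or their partners, 9 histone demethylases, 8 genes of histone acetylation and 5 genes of DNA methylation. The members were a list of gene symbols chosen with earlier results of these data known, so no enrichment was tested. A peak was assigned to a member by its Ensembl identifier. The peaks of that identifier had to lie mainly in the RefSeq span of the gene, on its strand (GRCh38). In all, 53 of the 59 members had a peak in at least 1 list, among 7436 protein-coding genes with a peak.

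The study captured RNA carrying N4-acetylcytidine (ac4C) with an antibody (acRIP-seq) from SiHa cells, a cervical carcinoma line, and from SiHa cells in which the ac4C-forming acetyltransferase NAT10 had been knocked out. Each population was sequenced as 2 immunoprecipitated and 2 input libraries. Whether the knockout line was a single clone is not stated in the labels. The authors deposited 1 peak list for each population, with no value per replicate, so the lists were compared as they stand and no difference could be set against the spread between replicates. Read depth was not known. The list whose name carries an added K was read as that of the knockout, which no label states in words. The p-values and fold enrichments below are the authors' own, and they describe peaks within a list only.

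The SiHa list held 12924 usable peaks and the knockout list 4557. NAT10 itself had 1 SiHa peak of 359 bases (deposited p of 5e-37) and no knockout peak. A peak list measures neither the level of a transcript nor the level of ac4C, so a gene in a single list is called only that here. Identifiers were named by position, and exons were not at hand, so positions are given along gene spans with their introns included. All intervals are 95% exact (Clopper-Pearson) binomial intervals that cover counting error only. They count genes or peaks as if independent, which are not replicates, and are no test against the share of all genes.

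ac4C is an acetylated cytidine that NAT10 places on transfer and ribosomal RNA and that has been reported on messenger RNA. Chromatin regulators act in large families. SWI/SNF, ISWI, CHD and INO80 enzymes use ATP to slide or evict nucleosomes. Methyltransferases and demethylases set marks on histone tails, acetyltransferases open chromatin and deacetylases reverse them, and DNMT and TET enzymes add and oxidise methyl groups on cytosine in DNA.

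Peaks were found in most of these genes. A SiHa peak was present in 45 of 59 members (76.3%), against 30.5% of all 20050 protein-coding genes. A knockout peak was present in 34 members (57.6%), against 15.6% of all protein-coding genes. Peaks in both lists were found in 26 members, in the SiHa list alone in 19 and in the knockout list alone in 8. The other 6 members, SMARCA5, INO80, SUZ12, KDM1A, KDM5C and HDAC1, had no peak. Of the 45 members with a SiHa peak, 19 (42.2%, 27.7 to 57.8%) had no knockout peak, against 70.5% of all genes with a SiHa peak. Of the 34 members with a knockout peak, 8 (23.5%) had no SiHa peak, against 42.3%. The members' spans were long, with a median of 109 kb against 24.1 kb for all protein-coding genes, and their part in these shares was not tested. Since the members were chosen with results known, the shares were not tested against those of all genes.

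**Figure D1:**
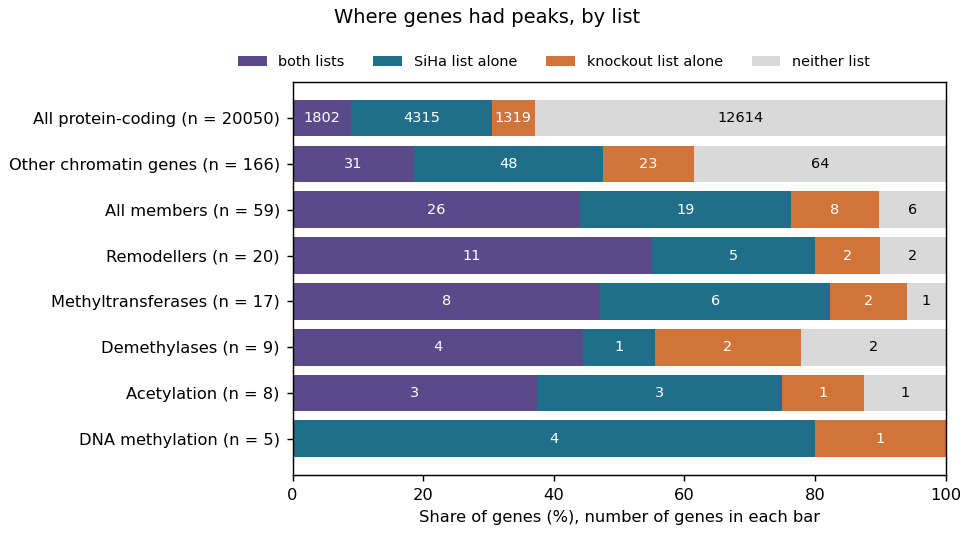
Share of genes (x axis, %) with peaks in both lists, in the SiHa list alone, in the knockout list alone or in neither, for all protein-coding genes, 166 other chromatin genes, all 59 members and the 5 subfamilies (rows). Numbers in the bars are genes. The members had peaks in both lists in 26 cases, and the DNA methylation genes in none.

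The share with no knockout peak was also counted by the number of SiHa peaks. It fell at each step over all genes, but among the members only from the first group to the second. Among members with 1 SiHa peak, 7 of 13 (53.8%) had no knockout peak, against 75.9% of all genes with 1 SiHa peak. Among members with 2 or 3 SiHa peaks the count was 7 of 19 (36.8%, against 65.8%), and among those with 4 or more it was 5 of 13 (38.5%, against 56.2%). These shares rest on few members, and neither the differences from all genes nor the part of peak number was tested. Members in both lists had a median of 3 SiHa peaks and 737 bases under peaks, and members in the SiHa list alone had medians of 2 peaks and 422 bases. The median spans of these groups were 99.7 kb and 115 kb, in that order.

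A further 166 chromatin genes that are not members, among them the partner subunits and paralogs of the same families, were counted in the same way. A SiHa peak was present in 79 of them (47.6%) and a knockout peak in 54 (32.5%). Of the 79, 48 (60.8%, 49.1 to 71.6%) had no knockout peak. Their median span was 42.8 kb, and all 4 values lay between those of the members and those of all protein-coding genes.

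**Figure D2:**
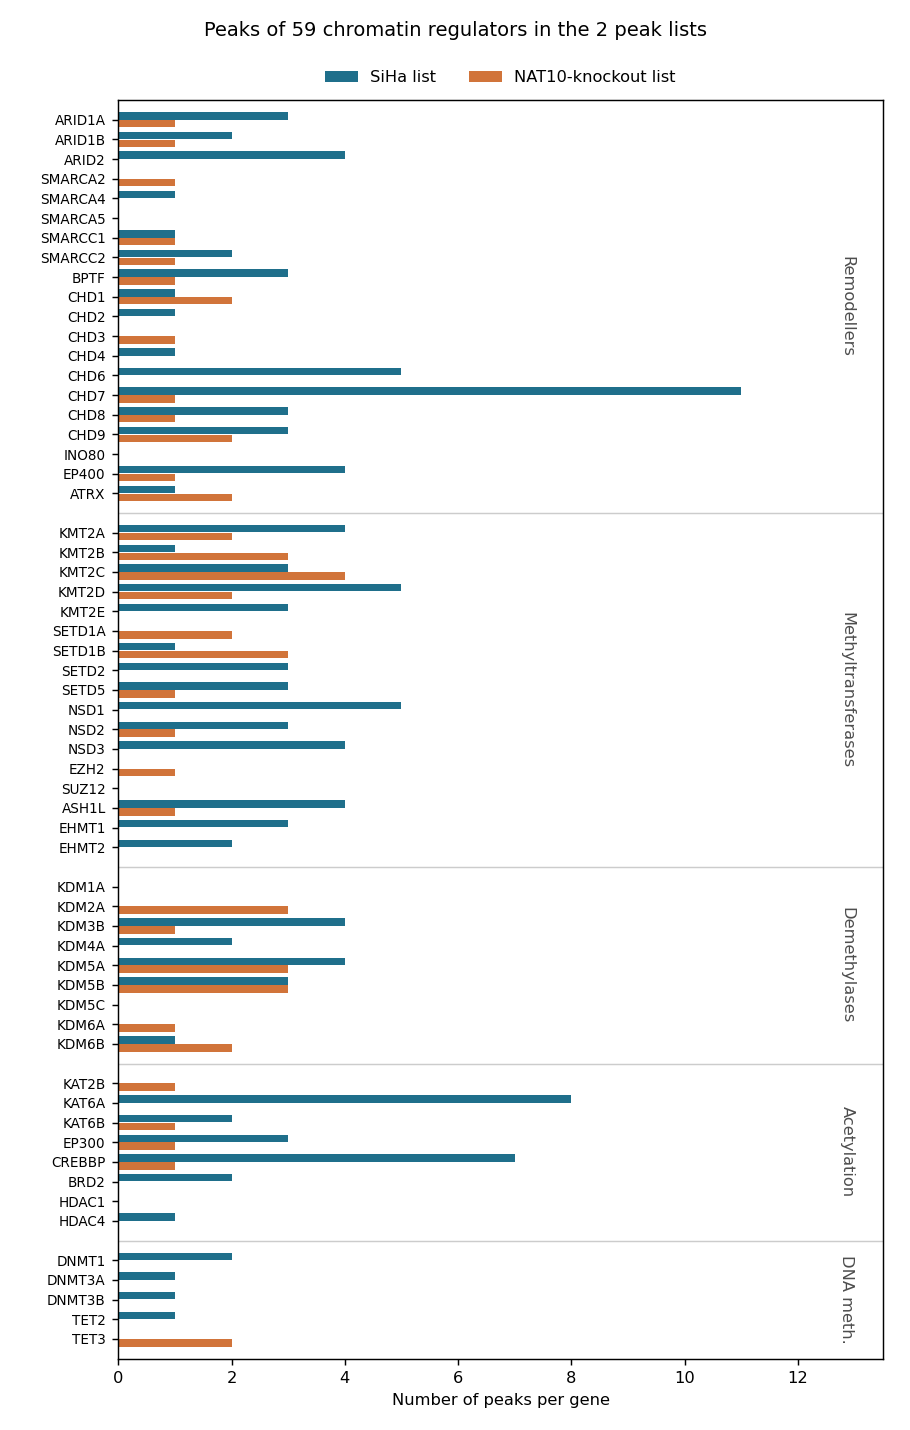
Number of peaks (x axis) of each of the 59 members (rows, grouped by subfamily) in the SiHa list and in the knockout list. CHD7, KAT6A and CREBBP had the most SiHa peaks, with 11, 8 and 7, and KMT2C had the most knockout peaks, with 4.

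The 132 SiHa peaks of the members covered 34426 bases and the 55 knockout peaks covered 9461. There were 2.93 peaks per member with a SiHa peak, against 1.85 over all genes, and 1.62 per member with a knockout peak, against 1.25. SiHa peaks of members had a median width of 211 bases, against 181 over all genes, and knockout peaks had a median of 181 bases, against 180. The median −log10 of the deposited p was 9.36 in the members' SiHa peaks, against 6.35 over all genes, and 5.11 in their knockout peaks, against 5.55. The median deposited fold of the knockout peaks was 10.3, against 12.8.

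Many of the knockout peaks had weak or repeated values. A deposited false discovery rate above 0.05 was given for 16 of the 55 (29.1%), against 23.3% of all knockout peaks in named genes. Such peaks were the only knockout peaks of ARID1B, SMARCA2, SMARCC1, SMARCC2, KAT2B and EP300. Without them, 28 members (47.5%) had a knockout peak, against 12.4% of all protein-coding genes. A pair of p and fold that at least 10 knockout peaks share exactly, such as 0.01 with 10.3, was held by 31 (56.4%), against 57.5%. Without the peaks on such pairs, 30 of 45 members (66.7%) with a SiHa peak had no knockout peak, against 84.9% of all genes. The share was 78.4% against 84.1% when a peak had to have −log10 p above 8 in either list. By that stricter rule 8 members had peaks in both lists. They were the methyltransferases KMT2A, KMT2B, KMT2D, NSD2 and ASH1L, the remodeller BPTF, the demethylase KDM5B and the acetyltransferase CREBBP.

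Peaks of the lists seldom lay at the same place. Of the members' 132 SiHa peaks, 7 shared bases with a knockout peak (5.30%, 2.16 to 10.6%), against 6.92% of all SiHa peaks in named genes, and 7 of their 55 knockout peaks shared bases with a SiHa peak (12.7%), against 20.1%. The overlaps fell in 5 of the 26 members with peaks in both lists (19.2%), against 38.5% of all such genes. These members were KDM5A, with 3 overlapping pairs, and ASH1L, KMT2C, NSD2 and CHD7, with 1 each. When a gene without an overlapping pair was counted as absent from the knockout list, the share was 88.9%, against 88.6% over all genes with a SiHa peak, so the difference in shares was no longer seen.

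Peaks close to each other without shared bases were found in 9 more members. In SETD5 the nearest peaks were 29 bases apart, in KDM3B 59, and in KDM5B, KDM6B and KMT2B 89 bases each. In CHD1 they were 359 bases apart, in SETD1B 418, in ARID1B 449 and in KAT6B 749. Thus 14 of 26 members (53.8%) had peaks of both lists overlapping or within 1000 bases, against 58.9% of all genes with peaks in both. In the other 12 the gap ran from 4163 bases in KMT2A to 160849 in ATRX.

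**Figure D3:**
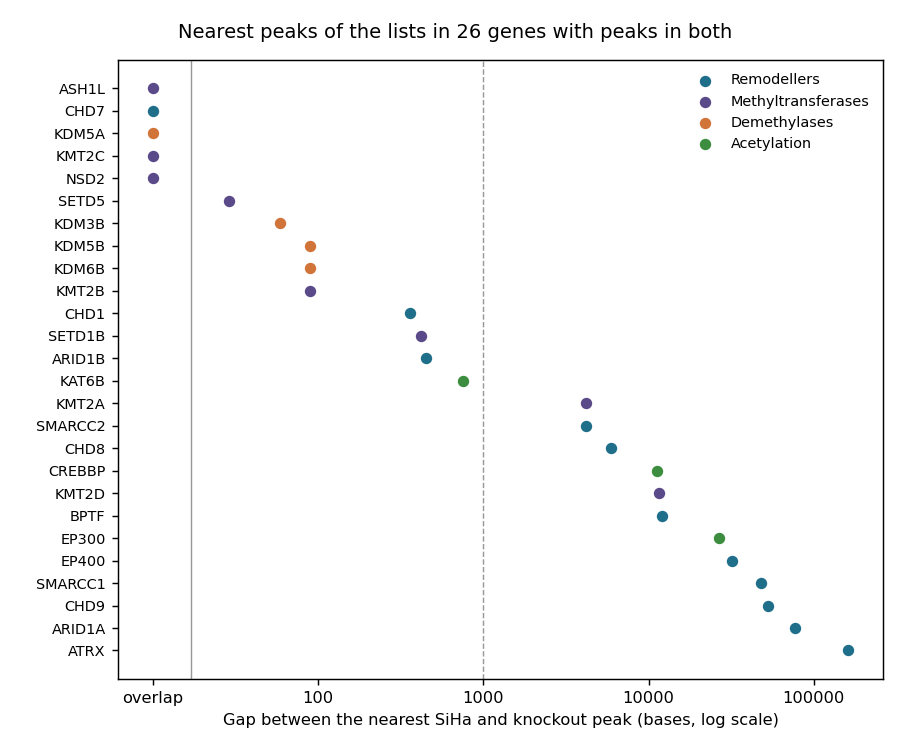
Gap in bases (x axis, log scale) between the nearest SiHa and knockout peak of each of the 26 members with peaks in both lists (rows, coloured by subfamily). The first 5 genes overlap, and the dashed line marks 1000 bases, with 9 genes between overlap and that line and 12 beyond it. The 4 demethylases lie at or under 89 bases, and 8 of the 11 remodellers lie beyond 1000. Of all 1802 genes in both lists (not drawn), 841 overlap or lie within 200 bases and 740 lie beyond 1000.

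The distance to the end of the gene was counted next. Of the members' SiHa peaks, 43 (32.6%) lay wholly within the last 5000 bases of the span, against 50% of all SiHa peaks in named genes. Of their knockout peaks, 14 (25.5%) did, against 43.5%. The difference in shares was not tested. A fixed 5000 bases is a smaller part of the members' longer spans, and the part of span length was not tested. Peaks with more than 1 block, which cross a gap such as an intron, made up 36 of the SiHa peaks (27.3%, against 25.7%) and 16 of the knockout peaks (29.1%, against 32.7%).

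**Figure D4:**
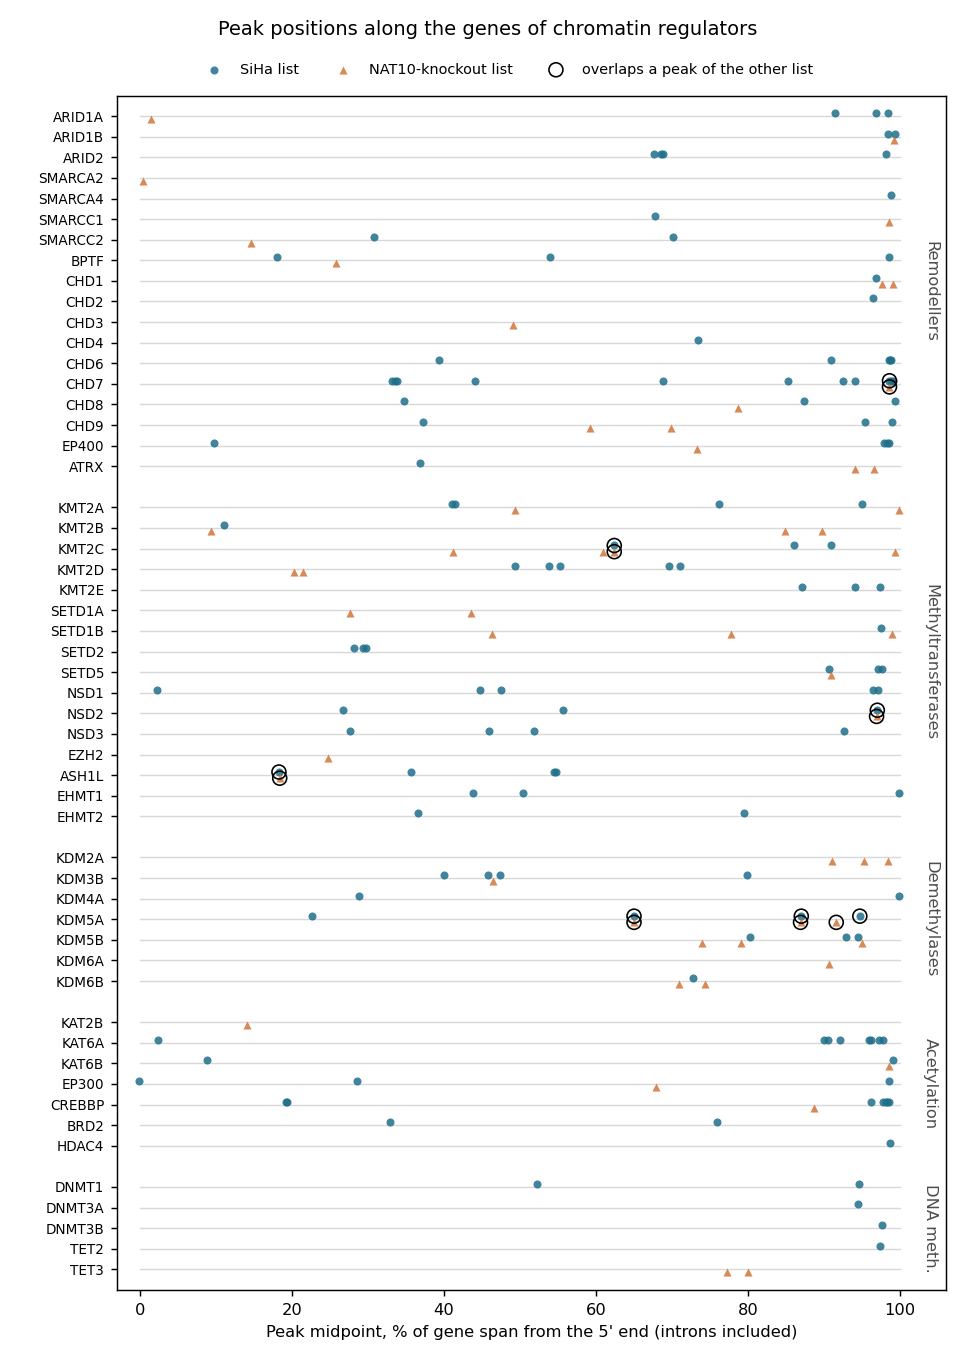
Midpoint of each peak as a percentage of the gene span from the 5' end, introns included (x axis), for the 53 members with a peak (rows, grouped by subfamily). Circles are SiHa peaks, triangles are knockout peaks and rings mark the 7 overlapping pairs, 3 of them in KDM5A.

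The nucleosome remodellers had peaks in both lists in 11 of 20 genes, in the SiHa list alone in 5 and in the knockout list alone in 2. Of the 16 with a SiHa peak, 31.2% had no knockout peak (11 to 58.7%), against 70.5% of all genes with a SiHa peak. The interval is no test of this difference. Their 46 SiHa and 16 knockout peaks overlapped in a single pair, in CHD7, which is 2.17% of the SiHa peaks (0.055 to 11.5%, against 6.92%) and 6.25% of the knockout peaks (against 20.1%). In 8 of the 11 genes found in both lists the nearest peaks were more than 1000 bases apart, against 740 of 1802 over all genes.

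Among SWI/SNF subunits, ARID1A, the DNA-binding subunit of the canonical BAF complex (ENSG00000117713, chromosome 1, 26696015 to 26782104), had 3 SiHa peaks. The strongest covered 690 bases at 26779046 to 26779735, with a deposited p of 1e-144, and all 3 lay between 91.4% and 98.4% of the span. Its knockout peak lay at the opposite end, at 1.47% of the span, with a p of 0.00019 and a fold of 17.9. Its paralog ARID1B had 2 SiHa peaks, with p of 0.00036 and 6.3e-11. The ARID1B knockout peak (deposited p of 0.00072, fold 15.4) lay at 99.2% of the span, 449 bases from the stronger SiHa peak. ARID2, which belongs to the PBAF complex, had 4 SiHa peaks, the strongest with a p of 5.5e-08, and no knockout peak.

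The ATPase gene SMARCA4 had a single SiHa peak of 511 bases in 3 blocks near its 3' end (chromosome 19, 11060072 to 11062095, deposited p of 2.5e-78) and no knockout peak. A knockout peak of another identifier lay in its span and counted for it when any span touched gave the name. The paralogous ATPase gene SMARCA2 had no SiHa peak and a knockout peak at 0.408% of its span (deposited p of 0.0023, fold 7.69). The core subunit genes SMARCC1 and SMARCC2 were in both lists. SMARCC1 had a SiHa peak with a p of 1e-17 and a knockout peak 47940 bases away with a p of 0.0028. SMARCC2 had 2 SiHa peaks, the stronger with a p of 1e-18, and a knockout peak with a p of 0.038, the weakest p in the members' knockout peaks and one that CHD1 and KDM5B also held.

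CHD7, the remodeller altered in CHARGE syndrome (ENSG00000171316, chromosome 8), had 11 SiHa peaks that covered 3154 bases, the most of any member. They ran from 33.2% to 99.1% of the span, with deposited p from 0.027 to 1e-121. Its knockout peak (deposited p of 2.8e-06, fold 25.6) shared 90 bases with a SiHa peak of 240 bases near the 3' end (deposited p of 2.5e-15). CHD6 had 5 SiHa peaks, 3 of them between 98.5% and 98.8% of the span and the strongest at 39.3% (deposited p of 1e-56), and none in the knockout. CHD8 and CHD9 each had 3 SiHa peaks. The knockout list held 1 peak in CHD8 and 2 in CHD9, none of which overlapped a SiHa peak.

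CHD1, which binds trimethylated lysine on histone H3, had a SiHa peak of 361 bases with a p of 1.6e-31. Its 2 knockout peaks lay on the 3' side of it, at 359 bases and further. CHD2 and CHD4, the latter the ATPase of the NuRD complex, each had 1 SiHa peak that crossed a gap, with p of 7.9e-13 and 2e-33. CHD3, the paralog of CHD4 in NuRD, had a knockout peak alone, of 240 bases in 3 blocks with a p of 7.9e-16 and a fold of 3.13.

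Among the remaining remodellers, EP400, the ATPase of the TIP60 complex (ENSG00000183495), was the single member with a SiHa p listed at 0. That peak covered 451 bases in 2 blocks between 131961607 and 131963634 on chromosome 12, at 9.71% of the span. The other 3 SiHa peaks of EP400 lay between 97.9% and 98.6% of the span, and its knockout peak lay between, at 73.3%, with a p of 2.8e-07 and a fold of 12. BPTF, the largest subunit of the NURF complex, had 3 SiHa peaks, the strongest of 211 bases with a p of 1e-172 at 53.9% of the span. Its knockout peak of 121 bases, with a p of 4.3e-10 and a fold of 12.8, lay at 25.8%. ATRX, which deposits histone H3.3 with DAXX, had 1 SiHa peak and 2 knockout peaks. The SiHa peak had a p of 0.0059, and the knockout peaks had p of 1.6e-24 and 0.00072 with folds of 13.3 and 15.4.

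The histone methyltransferases and their partners had peaks in both lists in 8 of 17 genes, in the SiHa list alone in 6 and in the knockout list alone in 2. Of the 14 with a SiHa peak, 42.9% had no knockout peak (17.7 to 71.1%), against 70.5% of all genes with a SiHa peak. The interval is no test of this difference. This subfamily held 3 of the 7 overlapping pairs (6.82% of its SiHa peaks, against 6.92%) and 5 of the 8 members with strong peaks in both lists. Strong meant −log10 p above 8, at which 78.4% of members with a SiHa peak had no knockout peak, against 84.1% of all genes. The subfamily made up 17 of the 59 members and held 20 of their 55 knockout peaks. Of its 20 knockout peaks, 2 (10%, against 23.3%) had a deposited false discovery rate above 0.05.

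Most KMT2 and SETD1 proteins methylate lysine 4 of histone H3, an activity that KMT2E is generally held to lack. Of these 7 genes KMT2A, KMT2B, KMT2C, KMT2D and SETD1B were in both lists, KMT2E in the SiHa list alone and SETD1A in the knockout list alone. KMT2B had a SiHa peak of 391 bases (deposited p of 1e-111) at 11.1% of its span. A knockout peak of 181 bases (deposited p of 1.6e-11, fold 25.6) lay 89 bases from it, and 2 further knockout peaks lay at 84.9% and 89.7%. KMT2A had 4 SiHa peaks, the strongest with a p of 5e-16. Its strongest knockout peak (deposited p of 3.2e-25, fold 53.8) lay 120 bases from the 3' end of the gene, at a place with no SiHa peak.

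KMT2C had 3 SiHa and 4 knockout peaks (ENSG00000055609, chromosome 7, 152134925 to 152436003). The SiHa peak at 152248099 to 152248309 (deposited p of 2e-57) and the knockout peak at 152248129 to 152248309 (deposited p of 0.00011, fold 3.85) shared 181 bases, which was 85.8% of the first and 100% of the second. KMT2D had its 5 SiHa peaks between 49.4% and 71.0% of the span, the strongest with a p of 2e-47. Its 2 knockout peaks lay at 21.4% and 20.3%, with p of 1.7e-08 and 2.5e-19. SETD1B had a weak SiHa peak (deposited p of 0.00054) and 3 knockout peaks, the strongest with a p of 3.2e-44 and a fold of 63.2. SETD1A, its paralog, had 2 knockout peaks with p of 3.2e-23 and 7.9e-18 and folds of 94.9 and 7.69. KMT2E, a divergent member of the family, had 3 SiHa peaks between 87.1% and 97.3% of its span, with p from 2.5e-06 to 5e-27.

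The NSD enzymes and SETD2 methylate lysine 36 of histone H3. NSD1 had 5 SiHa peaks, the strongest with a p of 7.9e-33, and no knockout peak. NSD3 (chromosome 8) had 4 SiHa peaks, all of which crossed a gap or gaps. The strongest covered 780 bases in 3 blocks with a p of 1e-283, and no knockout peak was listed. NSD2 alone of the 3 had peaks in both lists (ENSG00000109685, chromosome 4, 1871393 to 1982192). It had 3 SiHa peaks, and the one of 450 bases at 1978642 to 1979091 (deposited p of 1.4e-10) held the whole knockout peak of 181 bases at 1978701 to 1978881. That knockout peak had the highest fold of all members, 259, and the smallest knockout p, 2.5e-64. SETD2 had 3 SiHa peaks, all between 28.2% and 29.7% of the span, and none in the knockout.

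ASH1L, a further enzyme of lysine 36, had 4 SiHa peaks that covered 1711 bases, each with a p of 2e-26 or smaller (ENSG00000116539, chromosome 1, 155335268 to 155563202). The SiHa peak of 420 bases at 155521170 to 155521589 (deposited p of 1e-153) and the knockout peak of 181 bases (deposited p of 6.3e-26, fold 24.6) began at the same genomic base. The other 3 SiHa peaks of ASH1L had no knockout peak. SETD5, a SET-domain protein, had 3 SiHa peaks and a knockout peak (deposited p of 8.9e-07, fold 7.69) 29 bases from the first of them.

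EHMT1 and EHMT2, which form the G9a-GLP complex that methylates lysine 9, were in the SiHa list alone. EHMT1 had 3 peaks, the strongest of 661 bases with a p of 1e-241, and EHMT2 had 2, the stronger with a p of 6.3e-47. EZH2, the catalytic subunit of Polycomb complex PRC2, had a knockout peak alone, of 151 bases in 2 blocks, with a p of 9.8e-08 and a fold of 1.89. SUZ12, its partner, had no peak.

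The histone demethylases had peaks in both lists in 4 of 9 genes, in the SiHa list alone in 1 and in the knockout list alone in 2. Of the 5 with a SiHa peak, 20% had no knockout peak (0.505 to 71.6%), against 70.5% of all genes with a SiHa peak. The interval is no test of this difference. Among the 17 other demethylase genes counted, 9 of the 10 with a SiHa peak had no knockout peak, and none of their 11 SiHa peaks was overlapped. The 4 genes in both lists had their nearest peaks overlapping or within 89 bases. Over all genes in both lists, 841 of 1802 had peaks overlapping or within 200 bases, and the difference was not tested. The nearest knockout peaks of KDM3B, KDM5B and KDM6B lay on repeated pairs of p and fold. That of KDM5B had a deposited p of 0.038 and a false discovery rate above 0.05. In KDM5A the overlapping knockout peak with a p of 4.1e-08 lay on no such pair. Of the subfamily's 14 SiHa peaks, 9 (64.3%) crossed a gap, against 25.7% over all genes and 27.3% in the other demethylase genes. KDM5A and KDM5B held 3 each of the 9. Of the 13 knockout peaks, 10 (76.9%, against 57.5%) lay on a repeated pair of p and fold and 5 (38.5%, against 23.3%) had a deposited false discovery rate above 0.05.

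The KDM5 enzymes remove methyl groups from lysine 4 of histone H3. KDM5A (ENSG00000073614, chromosome 12, 280057 to 389320) had 4 SiHa peaks and 3 knockout peaks, and each knockout peak overlapped a SiHa peak. The strongest SiHa peak had 390 bases in 2 blocks between 292889 and 295681 (deposited p of 1e-141). The knockout peak within it shared all of its 151 bases, with a p of 4.1e-08 and a fold of 1.58, the lowest fold of all members. The other pairs shared 91 bases, near 65% of the span, and 61 bases. The knockout peak of the last pair had a p of 0.01 and a deposited false discovery rate above 0.05. The SiHa peak at 22.7% of the span (deposited p of 2.5e-06) had no counterpart.

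KDM5B had 3 SiHa and 3 knockout peaks with no shared base. Its strongest SiHa peaks had p of 1e-195 and 1e-137 and lay at 92.9% and 94.5% of the span. A knockout peak with a p of 0.038 lay 89 bases from the second, and the strongest knockout peak (deposited p of 3.2e-21, fold 7.18) lay at 73.9%. KDM5C, the X-linked paralog, had no peak. KDM6B, which acts on lysine 27, had a SiHa peak of 331 bases (deposited p of 1e-40) with a knockout peak on either side. The flanking peaks had p of 0.0079 and 0.0018 and folds of 6.41 and 5.98. KDM6A, the X-linked enzyme for the same mark, had a knockout peak alone (deposited p of 2e-14, fold 13.3).

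KDM3B, which acts on lysine 9, had 4 SiHa peaks, the strongest with a p of 2.5e-29. Its knockout peak (deposited p of 4.7e-05, fold 20.5) lay 59 bases from that peak. KDM4A, which acts on lysine 9 and lysine 36, had 2 SiHa peaks, with p of 0.00036 and 7.9e-10, the second ending 3 bases from the 3' end of the span, and no knockout peak. KDM2A, which acts on lysine 36, had 3 knockout peaks and no SiHa peak. They lay between 91.1% and 98.4% of the span, with p of 0.01, 0.004 and 0.01, and folds of 10.3, 4.49 and 10.3. KDM1A, the flavin-dependent demethylase, had no peak.

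The genes of histone acetylation had peaks in both lists in 3 of 8 cases, in the SiHa list alone in 3 and in the knockout list alone in 1. Of the 6 with a SiHa peak, 50% had no knockout peak (11.8 to 88.2%), against 70.5% of all genes with a SiHa peak. Of the 4 knockout peaks, 2 (50%, against 23.3%) had a deposited false discovery rate above 0.05. On a repeated pair of p and fold lay 3 of them (75%, against 57.5%). None of the 23 SiHa peaks of these genes was overlapped by a knockout peak (0 to 14.8%), against 6.92% of all SiHa peaks in named genes. This difference was not tested. Of the SiHa peaks, 11 (47.8%) lay within the last 5000 bases of the span, close to the 50% over all genes.

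KAT6A, a MYST-family acetyltransferase (ENSG00000083168, chromosome 8), had 8 SiHa peaks that covered 2940 bases and no knockout peak. A cluster of 7 lay between 90% and 97.7% of the span, the strongest of them with 719 bases and a p of 1e-228. The eighth lay at 2.38% and covered 869 bases in 2 blocks with a p of 1e-291, the smallest p above 0 of any member. Its paralog KAT6B had 2 weak SiHa peaks, with p of 0.00058 and 0.0012, and a knockout peak (deposited p of 7.8e-06, fold 5.98) 749 bases from the second. KAT2B, of the GCN5 family, had a knockout peak alone, with a p of 0.01 and a fold of 10.3.

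The paralogous coactivators CREBBP and EP300 were both in both lists. CREBBP had 7 SiHa peaks that covered 1566 bases, 5 between 96.2% and 98.6% of the span and 2 at 19.2% and 19.4%. The strongest had a p of 5e-37. Its knockout peak (deposited p of 5e-22, fold 89.7) lay at 88.7% of the span, 11245 bases from the nearest SiHa peak. EP300 had 3 SiHa peaks, with p of 7.4e-05, 3.2e-28 and 1.6e-68. Its knockout peak had a p of 0.0079 and a deposited false discovery rate above 0.05.

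The first SiHa peak of EP300 (chromosome 22, 41092445 to 41092595) began upstream of the start of the RefSeq gene span at 41092592. BRD2, which binds acetylated histones through its bromodomains, had a SiHa peak (chromosome 6, 32972747 to 32972926, deposited p of 4.1e-10) that reached into the window before another RefSeq start of that gene, at 32973084. These were the only member peaks whose bases were in the RefSeq promoter sequences (GRCh38.p14), which held a window for 49 of the 59 members. A stretch of 30 bases under either peak is shown to give the reference letters at these peaks, 5' to 3' on the plus strand, the strand of both genes. Capitals mark the first match to CNNCNNCNNCNN, a cytidine followed by any pair of bases, repeated 4 times, that has been reported around ac4C sites, on the strand shown in EP300 and on the opposite strand in BRD2.
EP300, chr22:41092445-41092474: gtgCGGCGGCGGCGGcgcggagcgcggcgg
BRD2, chr6:32972853-32972882: ccggactttCCGCGGCTGAGGgcagcgccg

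Overlapping matches were counted on both strands. The 147 bases of EP300 under the peak and before the start held 9 matches on the gene's strand and 12 on the other, with 75.5% G or C. The same 147 positions of all 35116 promoter windows averaged 58.8% G or C. C alone was 31.3% in EP300, against 29%. At least 1 match was held by 56.7% of windows on the gene's strand and by 78.6% on either strand. The number of matches per window was not compared. The 93 bases of BRD2 held no match on the gene's strand and 1 on the other. At the same positions 38.3% of windows held a match on the gene's strand and 59.4% on either strand. A match describes the letters only.

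BRD2 had a second SiHa peak with a p of 0.011, and no knockout peak. HDAC4, a class II deacetylase, had 1 SiHa peak, with a p of 0.00036, at 98.7% of its span. HDAC1, the class I deacetylase of NuRD and other corepressors, had no peak.

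The genes of DNA methylation were the subfamily with no member in both lists. Over all 20050 protein-coding genes, 1802 were in both. DNMT1, the maintenance methyltransferase, had 2 SiHa peaks, with p of 1e-06 and 0.00058. DNMT3A, a de novo methyltransferase (ENSG00000119772, chromosome 2), had 1 SiHa peak of 241 bases at 25234149 to 25234389 with a p of 1.6e-55, the strongest of the subfamily. DNMT3B had 1 with a p of 0.01, and TET2, a dioxygenase that oxidises 5-methylcytosine, had 1 with a p of 4.2e-08. All 4 genes lacked a knockout peak (100%, 39.8 to 100%), against 70.5% of all genes with a SiHa peak. With so few genes this difference was not tested. Among the 12 other DNA methylation genes counted, 3 were in both lists. Of the 7 of them with a SiHa peak, 4 (57.1%) had no knockout peak. TET3, a paralog of TET2, had 2 knockout peaks, with p of 0.026 and 5.6e-10 and folds of 5.13 and 41, and no SiHa peak. The 5 SiHa peaks of the subfamily had a median −log10 p of 6 and a median width of 180 bases.

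The 8 members with a knockout peak alone were thus CHD3, SMARCA2, SETD1A, EZH2, KDM2A, KDM6A, KAT2B and TET3. In SETD1A, CHD3, KDM6A and TET3 the strongest peak had a p of 5.6e-10 or smaller, and in EZH2 it was 9.8e-08. In SMARCA2, KDM2A and KAT2B it was 0.0023, 0.004 and 0.01. The deposited false discovery rate was above 0.05 for the only peak of SMARCA2 and of KAT2B. It was also above 0.05 for 2 of 3 peaks of KDM2A and 1 of 2 of TET3. Every knockout peak of TET3, SMARCA2, KDM2A and KAT2B lay on a repeated pair of p and fold.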

How the data were processed

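The 8 libraries (2 each of input and immunoprecipitated RNA from SiHa and NAT10-knockout SiHa cells) were deposited as 2 peak lists. The kit kept strand, per the labels' protocols. FastQC 0.11.7 and build GRCh38 (hg38) come from the submitters' processing notes. For the aligner, peak caller, annotation and handling of replicates, nothing is given in the sources used here. Per the file headers, each peak of either list carries a score, which was read here as the deposited p-value. The knockout list also has the log10 of the p and of the false discovery rate, and a deposited fold, a ratio whose reference is not stated.

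With Python 3.11.15, pandas 2.3.3 and SciPy 1.17.1, 1 repeated line and 3 SiHa and 2 knockout peaks off the assembled chromosomes were removed. An identifier took the name of the protein-coding RefSeq gene that held more than 50% of its peak bases on the same strand, where 1 gene alone did. Where identifiers shared a gene, the one with the most bases was used. Of 9046 identifiers, 7436 (82.2%) were named. The strand of 10 members was taken from their peaks. The majority rule was chosen after seeing the data, since a 90% rule left EP300 unnamed. Overlap meant at least 1 shared base on the same strand. Naming and overlap were tested on simulated peaks without gaps, placed inside isolated genes. Peaks that cross a gap, overlapping genes and identifiers that share a gene were not simulated.

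The members and lists were chosen with earlier results of these data known. Every member was named, with values for those in both lists, those in the knockout list alone, the 10 with the most SiHa bases and the strongest of each subfamily.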

Additional observations from a re-analysis of the deposited data

How the results depend on the processing

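The count of members in the SiHa list alone was 19 of 45 and depended on the peaks admitted. It was 29 of 37 (78.4%, against 84.1% of all genes with a SiHa peak) with −log10 p above 8 in both lists. Without knockout peaks on repeated pairs of p and fold it was 30 of 45 (66.7%, against 84.9%). It was 12 of 34 (35.3%, against 64.3%) among the strongest SiHa peaks, as many as there are knockout peaks. When an overlapping pair was required it was 40 of 45 (88.9%, against 88.6%). The count of overlapped SiHa peaks was 7 of 132 as reported (5.3%, against 6.92% of all SiHa peaks in named genes). With −log10 p above 5 it was 4 of 83 (4.82%, against 6.66%), a share close to that reported. It was 4 of 132 (3.03%, against 4.34%) without the repeated pairs. With reciprocal overlap of at least 50% it was 2 of 132 (1.52%, against 3.14%). In the other 12 of 19 alternative values the count stayed within 1.5 times that reported. These included naming by any span touched on the same strand, which gave SMARCA4 a knockout peak (35 members with a knockout peak), and naming at 90% of peak bases, added after seeing the data. No paired analysis was possible because each population has 1 peak list and no value per replicate, and for the same reason no replicate could be left out. The unknown read depth limits what the absence of a peak can show.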

Other observations

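Other identifiers had peaks inside the spans of 5 members. A knockout peak on the strand of SMARCA4 (deposited p of 0.01, fold 10.3) lay within RN7SL192P, a pseudogene inside its span. A knockout peak antisense to CHD4 (deposited p of 0.0028, fold 12.8) lay within CHD4-AS1. Its outer limits, 6578622 and 6582722 on chromosome 12, enclose those of the SiHa peak of CHD4 on the other strand, although its blocks cover 179 bases. A SiHa peak antisense to KDM4A (deposited p of 0.027) lay within KDM4A-AS1. A SiHa peak antisense to BRD2 (deposited p of 1.9e-05) covered 116 bases at 32972738 to 32972853 on chromosome 6, where the first SiHa peak of BRD2 also lay. In CHD2 another identifier on the same strand had a SiHa peak (deposited p of 6.3e-10).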
